A study of Mus musculus with 6 samples.

Results

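*Acod1*, *Hcar2*, *Arg2*, *Mirt2*, *Clec4d*, *Ptgs2*, *Tgm2* and *Thbs1* are transcripts known from activated neutrophils and macrophages, and their levels were followed across age and site in mature neutrophils of the mouse cranial bone marrow. These 8 genes were taken, of 55450 features, from measured values: they led a neutrophil cluster that was the largest neutrophil cluster of the 18m libraries. Their levels by age and their presence together in cells are therefore a description of the values that chose them. No test was applied. Mature neutrophils were cells in which *S100a8* and *S100a9* together held at least 2% of UMIs and *Ltf*, *Ngp* and *Camp* together under 1%. A UMI is 1 captured transcript molecule, and levels are given as CPM, in which the UMIs of a gene are scaled by the total UMIs of the cells counted. The gate held 19591 of 37576 cells.

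The 6 single-cell 3' RNA-seq libraries came from wild-type C57BL/6 mice that were stated to be male and carried no other allele or treatment. CBMA was the sagittal suture with the cranial bone marrow beside it, CBMD was parietal bone marrow distant from the suture, and each was taken at 02m, 12m (middle-aged) and 18m (elderly). Each library pooled 6 to 8 mice, so each age and site is 1 sample, age cannot be told apart from the pool, and both sites of an age may come from the same mice. The calvaria were stripped of dura and periosteum and digested with collagenase and dispase, and the suspensions were cleared of red cells and dead cells.

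Neutrophils are short-lived granulocytes that complete their maturation in the bone marrow and are held there in a large reserve. When a neutrophil or macrophage meets microbial products or cytokines, NF-kB and C/EBP factors switch on a shared set of transcripts for cytokines, metabolic enzymes and pattern receptors, several of which restrain inflammation in turn. *Acod1* makes itaconate in mitochondria, *Arg2* is the mitochondrial arginase, *Ptgs2* (cyclooxygenase 2) starts prostaglandin synthesis and *Tgm2* cross-links proteins. *Hcar2* is the receptor for niacin and beta-hydroxybutyrate, *Clec4d* is a C-type lectin receptor for mycobacterial glycolipid, *Mirt2* is a long non-coding RNA induced by lipopolysaccharide in macrophages, and *Thbs1* encodes the secreted glycoprotein thrombospondin 1.

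Sequence upstream of the start was available for 3 of the 8 genes in the RefSeq promoter table (GRCm38.p6) and is shown because motifs for the factors named above occur in it. All 3 genes are on the + strand, and capitals mark motif matches on either strand. The windows are chr14:103046762-103046976 for *Acod1*, chr6:123261857-123262106 for *Clec4d* and chr1:150099781-150100030 for *Ptgs2*, and each was searched over the 250 bases before the RefSeq start.

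Acod1: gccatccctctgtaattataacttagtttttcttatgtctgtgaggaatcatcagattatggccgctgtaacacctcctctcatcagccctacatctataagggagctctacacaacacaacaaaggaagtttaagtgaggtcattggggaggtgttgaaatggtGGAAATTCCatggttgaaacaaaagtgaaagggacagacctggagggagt
Clec4d: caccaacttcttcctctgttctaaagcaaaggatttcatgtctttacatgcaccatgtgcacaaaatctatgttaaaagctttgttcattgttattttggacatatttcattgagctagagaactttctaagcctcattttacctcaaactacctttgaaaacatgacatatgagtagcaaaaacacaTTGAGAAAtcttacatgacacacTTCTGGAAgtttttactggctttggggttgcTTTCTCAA
Ptgs2: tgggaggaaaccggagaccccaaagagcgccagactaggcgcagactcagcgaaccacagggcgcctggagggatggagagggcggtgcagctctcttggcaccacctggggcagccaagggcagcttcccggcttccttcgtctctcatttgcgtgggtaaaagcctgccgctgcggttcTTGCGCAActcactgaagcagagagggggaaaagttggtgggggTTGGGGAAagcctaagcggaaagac

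The *Acod1* window held a kappaB core, GGANTTNCC, 85 to 77 bases before the start. It also held the reverse complement of the hypoxia element ACGTG 18 to 14 bases before the start, within the last 35 bases, which the files' annotation counts as part of the gene and which are not printed. *Clec4d* had 3 matches to the C/EBP forms TTNNGNAA or TTNCNNAA, at 62 to 55, 39 to 32 and 8 to 1 bases before the start, and *Ptgs2* had 2, at 69 to 62 and 25 to 18. No matches overlapped, and neither AP-1 (TGANTCA) nor CRE (TGACGTCA) was found in the 3 windows. Of 32851 promoters of the same length, 3.15% held the kappaB core, 36.8% a C/EBP form, 16.6% the hypoxia element, 6.75% AP-1 and 1.55% CRE. A match describes the letters and not a bound site.

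On GRCm38, *Acod1* spans chr14:103046977-103056573 and *Arg2* chr12:79130777-79156301, both on the + strand. *Clec4d* spans chr6:123262111-123275265, *Ptgs2* chr1:150100031-150108227 and *Thbs1* chr2:118111876-118127133, also on the + strand. *Hcar2* (chr5:123863570-123865499), *Tgm2* (chr2:158116402-158146436) and *Mirt2* (chr15:76266461-76269839) are on the − strand. *Mirt2* is annotated as antisense and overlaps *Spatc1*, which had 0 to 3.30 CPM in the mature neutrophils. A further *Mirt2* entry, a misc_RNA inside the same locus, had 0 UMIs in all libraries. *Arg2* overlaps *Vti1b* (39.1 to 46.3 CPM) and *Tgm2* overlaps *Rprd1b* (19.3 to 37.4 CPM).

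The libraries held 3280 to 9749 barcodes and 16031737 to 66264495 UMIs, 43420 barcodes and 261183614 UMIs in all, and 37576 cells were kept under the study's limits, more than it states. The gate took 4015, 1071 and 3877 cells in CBMA_02m, CBMA_12m and CBMA_18m and 4819, 2086 and 3723 in CBMD_02m, CBMD_12m and CBMD_18m, with median depths of 2166 to 3096 UMIs. *Csf3r*, which encodes the G-CSF receptor of neutrophils, had a UMI in 85.4% to 97.1% of gate cells, and at least 3 of 8 neutrophil markers, *Csf3r* included, were present in 93.2% to 99.4%. The same barcode occurred in more than 1 library for 208 barcodes, and for 33 both cells were mature neutrophils.

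Both 12m libraries stood apart. They held *Xist*, the transcript of the inactive X chromosome, at 196 CPM (CBMA) and 209 CPM (CBMD) in mature neutrophils, against at most 0.219 CPM elsewhere, beside Y-linked transcripts at 104 and 103 CPM, against 194 to 291 CPM elsewhere. These values go against pools of males alone at 12m. In addition, 43.7% of the CBMA_12m gate carried at least 3 progenitor or monocyte markers, against 2.42% to 9.37% in the other libraries, and progenitor markers summed to 6270 CPM there, against 449 to 1882 CPM elsewhere. Values without these cells, and within 12m cells that held only *Xist* or only Y-linked UMIs, are given below for some of the results they change. The selection by sex transcripts kept 16.6% to 25.6% of a 12m gate and all gate cells of the other ages.

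**Figure D1:**
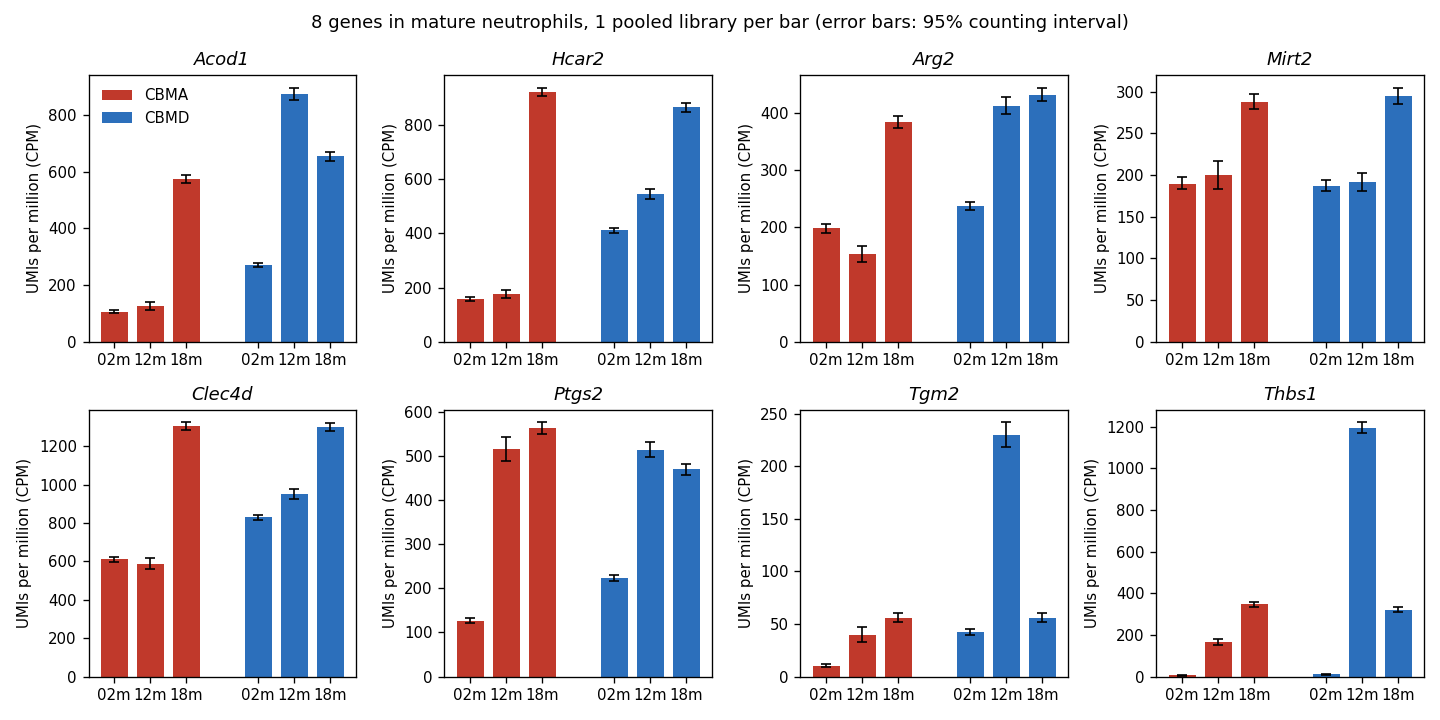
CPM (vertical axis) of each of the 8 genes in mature neutrophils. Each bar is 1 pooled library, red for CBMA and blue for CBMD with ages 02m, 12m and 18m left to right, and error bars are 95% counting intervals. Acod1 stood at 575 CPM in CBMA_18m and 875 CPM in CBMD_12m, and Thbs1 was near 0 at 02m in both sites.

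Every ratio is a ratio of CPM in mature neutrophils, given with an exact 95% interval in parentheses where the result turns on it. Intervals cover counting error only and not the spread between mice or pools. *Acod1* stood at 106, 125 and 575 CPM in CBMA (02m, 12m, 18m), from 1495, 365 and 7585 UMIs. In CBMD it stood at 270, 875 and 655 CPM, from 4938, 5830 and 7370 UMIs. Elderly CBMA thus stood apart from both younger CBMA libraries, whereas in CBMD the highest level was at middle age. The 18m against 02m ratio was 5.41 (5.12 to 5.72) in CBMA versus 2.42 (2.34 to 2.51) in CBMD. The 12m against 02m ratio was 1.18 (1.05 to 1.32) in CBMA versus 3.24 (3.12 to 3.36) in CBMD. The CBMA value at 12m lay below 02m, at −0.23 on the log2 scale, once libraries were scaled by median-of-ratios size factors, which move all log2 ratios of that comparison by −0.46, and at 94.4 CPM in the 12m cells with *Xist* alone. Those *Xist* cells were set against all 02m cells, and CBMA_12m cells with neither *Xist* nor Y-linked UMIs stood at 152 CPM.

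*Arg2*, which breaks arginine down to ornithine and urea, stood at 198, 153 and 384 CPM in CBMA versus 237, 413 and 433 CPM in CBMD (02m, 12m, 18m). These rest on 2793, 447 and 5066 UMIs in CBMA versus 4340, 2754 and 4872 UMIs in CBMD. The elderly libraries were the highest of each site, and CBMA_12m was the lowest of all 6. Ratios of 18m against 02m were 1.93 (1.85 to 2.03) in CBMA versus 1.82 (1.75 to 1.90) in CBMD. At 12m against 02m it was 0.772 (0.697 to 0.853) in CBMA versus 1.74 (1.66 to 1.83) in CBMD. CBMD_18m and CBMD_12m were not told apart by counting error, at 1.05 (0.999 to 1.1). The cytosolic isoenzyme *Arg1*, the arginase of alternatively activated macrophages, had 0 to 4 UMIs per library in the gate.

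*Ptgs2* stood at 127, 515 and 563 CPM in CBMA versus 222, 514 and 469 CPM in CBMD (02m, 12m, 18m), from 1787, 1503 and 7432 UMIs (CBMA) and 4064, 3424 and 5282 UMIs (CBMD). Within the gate both 02m libraries were the low ones, and the 12m and 18m libraries lay within a narrow band. The 12m against 02m ratio was 4.06 (3.79 to 4.35) in CBMA versus 2.31 (2.21 to 2.42) in CBMD. For 18m against 02m it was 4.44 (4.21 to 4.67) in CBMA versus 2.11 (2.02 to 2.2) in CBMD. CBMA and CBMD did not separate at 12m, with a ratio of 1.00 (0.943 to 1.07). Its log2 value ran from −0.52 to 0.21 over 15 alternatives and changed sign under 6 of them. The constitutive isoenzyme *Ptgs1* stood at 9.74 to 41.5 CPM in the gate.

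*Tgm2* stood at 10.3, 39.4 and 55.9 CPM in CBMA versus 42.3, 230 and 55.8 CPM in CBMD (02m, 12m, 18m). It had 145, 115 and 738 UMIs in CBMA versus 773, 1533 and 628 UMIs in CBMD. CBMD_12m was high alone, and the elderly libraries of the sites were alike within counting error at 1.00 (0.9 to 1.12). The 18m against 02m ratio was 5.43 (4.54 to 6.53) in CBMA versus 1.32 (1.19 to 1.47) in CBMD, the only one of the 8 genes under 1.5-fold in that comparison. The 12m against 02m ratio was 3.83 (2.97 to 4.92) in CBMA versus 5.44 (4.99 to 5.94) in CBMD. Without the 1% of each library's cells with most *Tgm2* UMIs, the log2 ratio was 3.08 in place of 2.44 for 18m against 02m in CBMA and −2.67 in place of −2.04 for CBMA_02m against CBMD_02m. *Tgm2* is a gene of endothelial cells, and endothelial markers in the gate summed to 17.3 to 97.7 CPM, with *Emcn* at 0 in CBMD_02m. Their part in the *Tgm2* values was not tested.

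*Hcar2*, a Gi-coupled receptor, stood at 158, 177 and 923 CPM in CBMA versus 412, 547 and 866 CPM in CBMD (02m, 12m, 18m). The values rest on 2217, 516 and 12181 UMIs in CBMA and 7535, 3643 and 9755 UMIs in CBMD. Both elderly libraries were above all 4 others. For 18m against 02m the ratio was 5.86 (5.6 to 6.13) in CBMA versus 2.10 (2.04 to 2.17) in CBMD. At 12m against 02m it was 1.12 (1.02 to 1.24) in CBMA versus 1.33 (1.27 to 1.38) in CBMD, and the CBMA value changed sign under size factors (−0.30 on the log2 scale) and within 12m cells with Y-linked UMIs alone (126 CPM) or *Xist* alone (140 CPM). Those 12m cells were set against all 02m cells, and CBMA_12m cells with neither transcript held *Hcar2* at 210 CPM. The lactate receptor *Hcar1*, its close relative, had 0 to 2 UMIs per library.

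*Clec4d*, which pairs with Mincle (*Clec4e*) to signal through the FcR gamma chain, stood at 610, 588 and 1305 CPM in CBMA versus 830, 951 and 1298 CPM in CBMD (02m, 12m, 18m). It had 8586, 1715 and 17225 UMIs in CBMA versus 15171, 6336 and 14621 UMIs in CBMD. The elderly libraries again lay above the other 4, with a CBMA to CBMD ratio at 18m of 1.00. The 18m against 02m ratio was 2.14 (2.08 to 2.2) in CBMA versus 1.56 (1.53 to 1.60) in CBMD. *Clec4e* itself stood at 412 to 959 CPM in the gate.

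*Mirt2* varied least, at 190, 199 and 288 CPM in CBMA versus 187, 191 and 295 CPM in CBMD (02m, 12m, 18m), from 2671, 582 and 3797 UMIs (CBMA) and 3423, 1276 and 3319 UMIs (CBMD). The 4 younger libraries were within a narrow band and both elderly libraries above it. Elderly libraries stood against 02m at 1.52 (1.44 to 1.59) in CBMA versus 1.57 (1.5 to 1.65) in CBMD, just past 1.5-fold in both, and the CBMA ratio was 1.46 without likely doublets. Between sites it was 1.01 (0.963 to 1.07) at 02m, 1.04 at 12m and 0.976 at 18m.

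*Thbs1*, whose product binds CD36 and CD47 and activates latent TGF-beta, had the widest range. It stood at 5.19, 166 and 346 CPM in CBMA versus 10.0, 1194 and 321 CPM in CBMD (02m, 12m, 18m), from 73, 484 and 4567 UMIs (CBMA) and 183, 7957 and 3613 UMIs (CBMD). Both 02m libraries were near 0, and CBMD_12m was the highest. The 18m against 02m ratio was 66.7 (53.0 to 85.3) in CBMA versus 32.1 (27.6 to 37.4) in CBMD, and the 12m against 02m ratio was 32.0 (24.96 to 41.5) in CBMA versus 119 (103 to 139) in CBMD. In CBMA_02m 46 cells carried *Thbs1*, so leaving out the 1% of each library's cells with most *Thbs1* UMIs removed most of its UMIs there, and the log2 ratio of 18m against 02m in CBMA was 9.65 in place of 6.06. In the same way it was 6.40 in place of 5.00 in CBMD, 8.47 in place of 5.00 for 12m against 02m in CBMA, 8.5 in place of 6.90 in CBMD, and −3.08 in place of −0.95 for CBMA_02m against CBMD_02m. The related *Thbs2*, *Thbs3* and *Thbs4* had at most 3.77 CPM. Mesenchymal cells also make *Thbs1*, and their markers in the gate summed to 17.9 to 145 CPM. Their part in the *Thbs1* values was not tested.

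**Figure D2:**
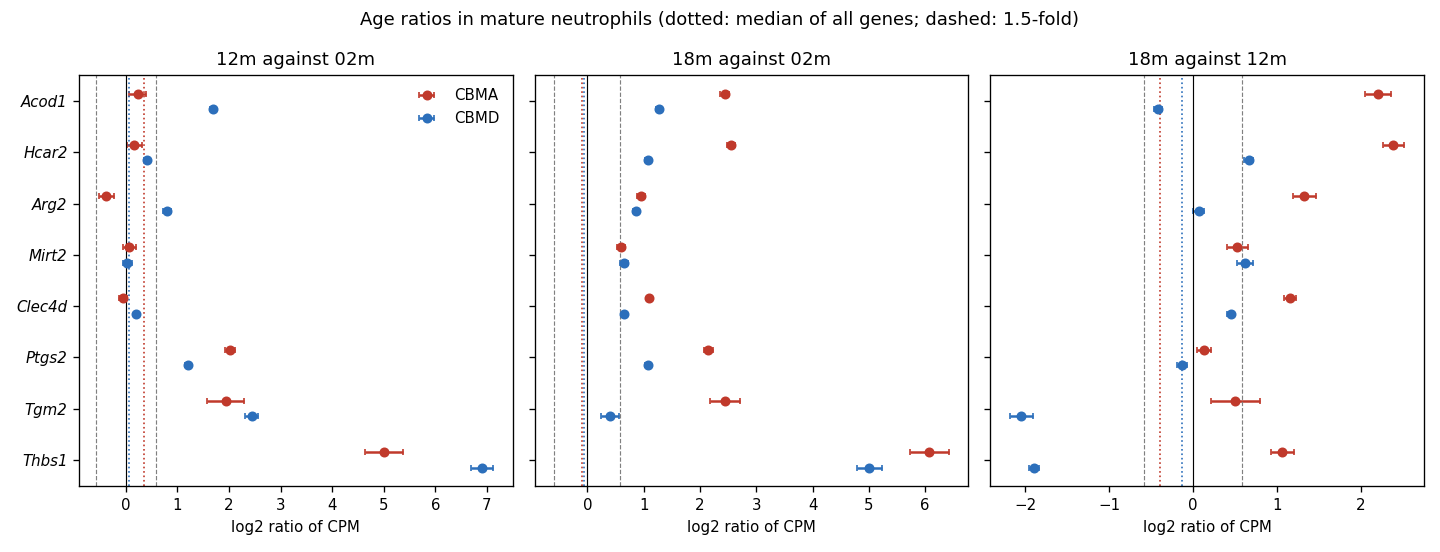
Log2 ratio of CPM between ages in mature neutrophils (horizontal axis) for each gene (rows), with panels for 12m against 02m, 18m against 02m and 18m against 12m. Points are CBMA (red) and CBMD (blue) with 95% counting intervals, dotted lines the median of all genes measured and dashed lines 1.5-fold. All 16 points of the 18m against 02m panel lie right of 0, whereas in the 18m against 12m panel the sites lie on opposite sides of 0 for Acod1, Ptgs2, Tgm2 and Thbs1.

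Over the 8 genes, all 8 were at least 1.5-fold higher in CBMA_18m than in CBMA_02m, where 14.1% of 10757 genes passed that limit upward, and the median log2 ratio was 2.29 for the 8 and −0.09 for all genes. In CBMD_18m against CBMD_02m 7 were, beside 13.2% of 10683 genes, with medians of 0.97 and −0.06. The genes were chosen on the 18m libraries, so these counts are a description. Without the cells that carried progenitor or monocyte markers, 7 passed at each site, and the gene lost in CBMA was *Mirt2*. The shares of all genes without those cells are not given here.

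At middle age the count differed between sites. In CBMA_12m against CBMA_02m 3 of 8 passed (*Ptgs2*, *Tgm2* and *Thbs1*), where 34.8% of 9974 genes passed upward, and the medians were 0.20 for the 8 genes and 0.36 for all genes. In CBMD_12m against CBMD_02m 5 passed (those 3 with *Acod1* and *Arg2*), beside 23.0% of 10636 genes, with medians of 1.00 and 0.07. These counts were the same, 3 and 5, without the cells with progenitor or monocyte markers and when only 12m cells with Y-linked UMIs and no *Xist*, or the reverse, were kept.

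Between 12m and 18m, CBMA_18m had 5 of 8 genes at least 1.5-fold higher than CBMA_12m (*Acod1*, *Hcar2*, *Arg2*, *Clec4d* and *Thbs1*), beside 6.69% of 9569 genes. Size factors, which move the log2 ratios by 0.55 in this comparison, by −0.17 for CBMD_12m against CBMD_02m, by 0.25 for CBMD_18m against CBMD_12m and by −0.39 for CBMA_12m against CBMD_12m, put all 8 past the limit in CBMA_18m against CBMA_12m. They move every gene of a comparison alike. The share of all genes past the limit under size factors is not given here, so this count is not set against other genes. In CBMD_18m against CBMD_12m 2 were higher (*Hcar2* and *Mirt2*), beside 11.3% of 9616 genes, and 2 were lower (*Tgm2* and *Thbs1*), beside 24.9%. *Tgm2* was at 0.242 (0.221 to 0.266) and *Thbs1* at 0.269 (0.258 to 0.280) of the CBMD_12m level, and *Acod1* at 0.748 (0.723 to 0.774). *Hcar2* (1.58) and *Mirt2* (1.54) were close to the limit, and neither passed it once likely doublets were left out.

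Between sites, 5 of 8 genes were at least 1.5-fold lower in CBMA_02m than in CBMD_02m, where 6.51% of 11110 genes were, with ratios of 0.393 for *Acod1*, 0.382 for *Hcar2*, 0.571 for *Ptgs2*, 0.244 (0.203 to 0.291) for *Tgm2* and 0.518 (0.389 to 0.683) for *Thbs1*. In CBMA_12m against CBMD_12m 6 were lower, beside 11.0% of 8831 genes, with *Thbs1* at 0.139, *Acod1* at 0.143, *Tgm2* at 0.171, *Hcar2* at 0.323, *Arg2* at 0.371 and *Clec4d* at 0.618. In CBMA_18m against CBMD_18m none passed in either direction (4.92% of all genes were higher and 3.00% lower), and the 8 ratios lay between 0.878 (*Acod1*, 0.850 to 0.907) and 1.20 (*Ptgs2*, 1.16 to 1.24). The median log2 ratio of the 8 genes was −0.88 at 02m, −1.53 at 12m and 0.01 at 18m, against 0.08, 0.38 and 0.02 for all genes. Most of the genes thus stood lower beside the suture than away from it at 02m and 12m, except *Mirt2* at both ages and *Ptgs2* at 12m, and all 8 were within 1.5-fold at 18m.

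*Acod1* had a UMI in 24.8%, 19.98% and 52.4% of mature neutrophils in CBMA versus 48.6%, 65.7% and 57.3% in CBMD (02m, 12m, 18m). Cells were then thinned to 1000 UMIs to compare shares at 1 depth, which left out 469 shallower cells, 27 to 188 per library. Thinned, the *Acod1* shares were 10.7%, 10.3% and 32.9% in CBMA versus 23.3%, 46.2% and 37.6% in CBMD, the same order as the CPM except for the nearly equal CBMA_02m and CBMA_12m.

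Thinned shares were 14.7%, 15.9% and 52.6% for *Hcar2* in CBMA versus 32.7%, 38.3% and 52.9% in CBMD (unthinned 33.6%, 31.3% and 77.2% in CBMA, then 61.7%, 62.1% and 77.2% in CBMD). *Clec4d* was in 46.2%, 43.6% and 69.3% of CBMA cells and 56.0%, 60.3% and 70.9% of CBMD cells (unthinned 65.8% to 92.7%). *Ptgs2* was in 9.90%, 31.4% and 28.6% in CBMA versus 15.9%, 31.7% and 25.01% in CBMD (unthinned 17.2% to 49.2%). Within the gate *Clec4d* and *Hcar2* were thus found in most elderly neutrophils, whereas *Ptgs2* stayed in a minority at every age. The thinned range was 15.1% (CBMA_12m) to 35.3% (CBMD_12m) for *Arg2* and 17.5% (CBMD_02m) to 25.6% (CBMD_18m) for *Mirt2*. *Tgm2* was in 1.31% (CBMA_02m) to 20.1% (CBMD_12m) and *Thbs1* in 0.428% (CBMA_02m) to 44.6% (CBMD_12m) of thinned cells.

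A level can change through more cells with the transcript or more UMIs in each, and both moved here. Each *Acod1*-positive cell held a mean of 1.5, 1.71 and 3.73 UMIs in CBMA versus 2.11, 4.26 and 3.45 UMIs in CBMD (unthinned). For *Thbs1* the means were 1.59, 2.55 and 5.00 UMIs in CBMA versus 1.76, 6.68 and 4.19 UMIs in CBMD, with up to 65 UMIs in 1 cell of CBMD_12m. *Mirt2* stayed between 1.47 and 1.79 UMIs per positive cell in all libraries. Transcripts were also spread unevenly over cells. The 10% of cells with most *Clec4d* UMIs held 25.8% to 33.8% of them, whereas for *Ptgs2* the top 10% held 83.6% in CBMA_02m and 54.6% to 64.5% in the other libraries, and 1 cell of CBMA_18m carried 63 *Ptgs2* UMIs.

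**Figure D3:**
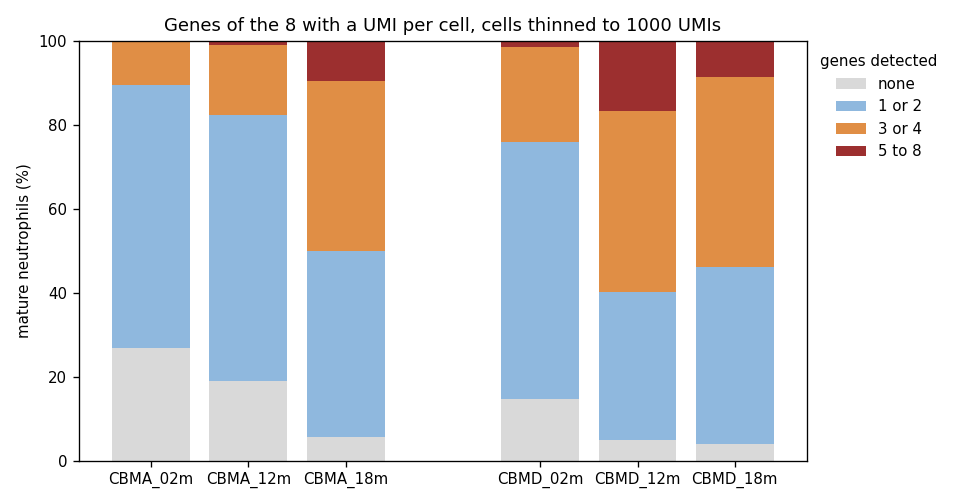
Share of mature neutrophils (%, vertical axis) by how many of the 8 genes had a UMI, in each library (horizontal axis), cells thinned to 1000 UMIs. Stacked colours are none, 1 or 2, 3 or 4 and 5 to 8 genes. Cells with 3 or more made up 50.1% of CBMA_18m and 10.6% of CBMA_02m.

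Single cells carried the genes in combination. The genes led a cluster of these cells, so their detection together follows in part from the choice and is a description. At least 3 of the 8 were detected in 10.6% (9.69 to 11.6), 17.8% (15.4 to 20.4) and 50.1% (48.5 to 51.6) of thinned CBMA cells (02m, 12m, 18m), and in 24.2% (22.9 to 25.4), 59.8% (57.6 to 62.0) and 53.9% (52.3 to 55.5) of CBMD cells, with exact binomial intervals. Unthinned, the shares were 48.2%, 48.6% and 85.5% in CBMA versus 71.4%, 84.8% and 88.2% in CBMD. CBMD_12m, CBMD_18m and CBMA_18m thus lay above the other 3 libraries. Cells with none of the 8 made up 26.8%, 18.9% and 5.64% in CBMA versus 14.6%, 4.95% and 3.95% in CBMD. Cells with 5 to 8 made up 0.353%, 0.947% and 9.56% in CBMA versus 1.49%, 16.8% and 8.66% in CBMD, and without thinning all 8 were found together in 47 cells of CBMA_18m, 70 of CBMD_12m, 12 of CBMD_18m, 1 of CBMD_02m and none of CBMA_02m and CBMA_12m.

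Pairs were next set against cells that lacked one of the partners, within each library and after thinning. *Hcar2* was in 18.1% (14.6 to 22.1) of *Acod1*-positive and 14.3% (13.2 to 15.5) of *Acod1*-negative cells of CBMA_02m, in 18.4% and 15.6% in CBMA_12m, and in 61.9% (59.2 to 64.6) and 48.0% (46.0 to 49.9) in CBMA_18m. In CBMD the shares were 39.9% and 30.5% at 02m, 44.7% and 32.7% at 12m and 56.3% and 50.9% at 18m. The *Acod1*-positive share was the higher in 6 of 6 libraries, and the intervals were apart in 4. The excess was modest, with a median ratio of 1.28 over libraries. Without the cells with progenitor or monocyte markers, the *Acod1*-positive share was the higher in 5 libraries, with intervals apart in 4. The median ratio was then 1.24 and the lowest 0.901.

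*Tgm2* and *Ptgs2* had the strongest co-detection. *Tgm2* was in 2.54%, 7.05% and 9.70% of *Ptgs2*-positive cells, against 1.17%, 3.22% and 3.42% of *Ptgs2*-negative cells, in CBMA (02m, 12m, 18m). In CBMD the shares were 6.62%, 24.6% and 8.33%, against 3.74%, 18.1% and 4.48%. The median ratio was 2.01 (range 1.36 to 2.83), higher in 6 of 6 libraries with intervals apart in 4. *Ptgs2* was also more frequent in *Acod1*-positive cells in 6 of 6 libraries, at a median ratio of 1.34 (range 1.11 to 1.84). *Mirt2* and *Tgm2* went the other way: *Tgm2* was more frequent in *Mirt2*-positive cells in 1 of 6 libraries, at a median ratio of 0.79, and the intervals overlapped in all 6. For *Thbs1* in *Acod1*-positive cells the median ratio was 1.05, higher in 4 of 6.

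Of the 28 pairs, the positive-cell share was higher in 23, 13 and 27 in CBMA at 02m, 12m and 18m and in 25, 25 and 22 in CBMD. The intervals were apart for 4, none and 13 pairs in CBMA versus 8, 11 and 8 pairs in CBMD. Without the cells with progenitor or monocyte markers, the higher share was seen in 21, 10 and 26 pairs of CBMA and 23, 23 and 22 pairs of CBMD. Cells of a library share their pool and preparation and are not replicates. The pair counts are a description, since the genes were chosen from a cluster of these cells.

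**Figure D4:**
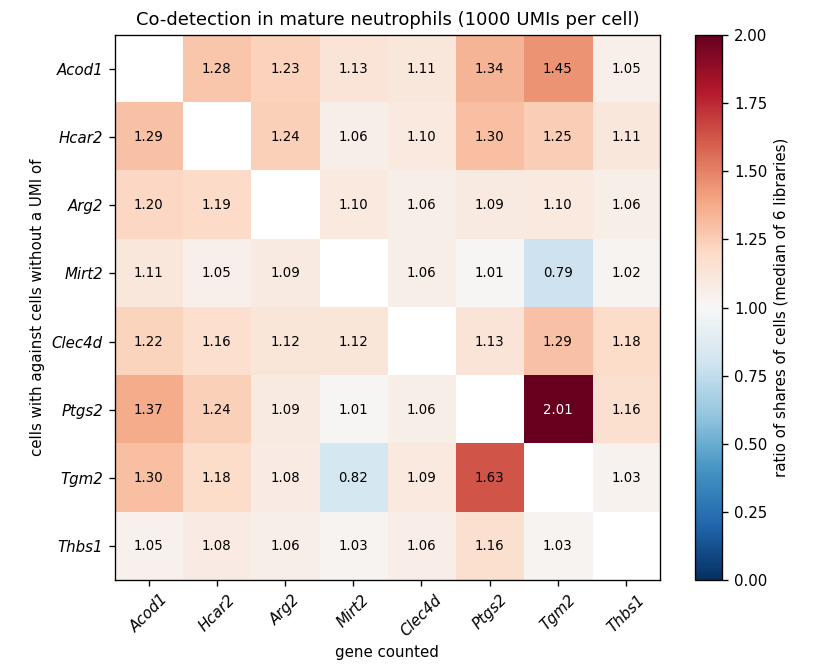
Ratio of the share of cells with a UMI of 1 gene (columns) in mature neutrophils with and without a UMI of another (rows), as the median of the 6 libraries, cells thinned to 1000 UMIs. Red is above 1 and blue below it, and the diagonal is left blank. Tgm2 in Ptgs2-positive cells (2.01) is the highest value and Tgm2 in Mirt2-positive cells (0.79) the lowest.

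Cells with at least 3 of the genes were compared with cells with none, in the same library, for gene lists that hold none of the 8. The 20 NF-kB and inflammatory genes stood 2.27, 2.28 and 3.55 times as high in CBMA versus 1.95, 4.64 and 3.78 times as high in CBMD (02m, 12m, 18m). *Il1b*, the cytokine interleukin 1 beta, stood 2.77, 2.72 and 3.41 times as high in CBMA versus 2.15, 4.6 and 4.31 times as high in CBMD. Carriers of the 8 genes held more inflammatory transcript in every library. The genes led a cluster of these cells and the list was chosen with earlier results known, so this is a description. The NRF2 targets, antioxidant genes that itaconate is known to induce, stood 1.29 to 2.25 times as high, and the eicosanoid genes 0.997 to 1.23 times. C-type lectin signalling genes stood 1.26 to 1.67 times and interferon-stimulated genes 1.20 to 2.08 times as high. Ratios of this size were thus not particular to the NRF2 targets. *Cxcr4*, the receptor that draws aged neutrophils to bone marrow, stood 1.20 to 1.99 times as high.

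The cells with none of the genes also held progenitor transcripts. Progenitor markers summed to 282, 1458 and 149 CPM in cells with at least 3 of the genes and 4889, 16111 and 5756 CPM in cells with none in CBMA (02m, 12m, 18m). In CBMD the values were 186, 255 and 103 CPM, against 1680, 9804 and 6133 CPM. Without cells carrying at least 3 progenitor or monocyte markers, the NF-kB ratio was 1.68, 1.57 and 2.73 in CBMA versus 1.58, 3.79 and 2.88 in CBMD, and the *Il1b* ratio 1.97, 2.02 and 2.42 in CBMA versus 1.72, 3.50 and 3.12 in CBMD. The ratio of the progenitor markers was then 0.968 to 1.56. NRF2 targets then stood 1.06 (CBMA_12m, 0.966 to 1.16) to 1.87 (CBMD_18m) times as high. Interferon-stimulated genes stood 0.972 (CBMA_18m, 0.897 to 1.06) to 1.68 (CBMD_12m) times as high. C-type lectin signalling genes stood at most 1.51 times (CBMD_18m) as high. Maturation genes stood 0.692 (CBMA_12m) to 1.09 (CBMA_18m) times as high, against 1.02 to 1.60 times with the marker-carrying cells included. The *Cxcr4* ratio without the marker-carrying cells is not given here. With the marker-carrying cells included, immediate-early and heat shock genes stood 1.41 to 1.92 times as high in cells with at least 3 of the genes. Without them, the range was 1.14 (CBMA_12m) to 1.65 (CBMD_12m). Warm digestion is known to raise immediate-early and heat shock genes. Their part in the result was not tested.

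Genes whose presence went most with *Acod1* were ranked by the median over 6 libraries of the log2 ratio of CPM in mature neutrophils with an *Acod1* UMI to those with none, among 5013 genes found in at least 5% of cells. The first 10 that were not among the 8 were *Il23a* (0.96), *Sod2* (0.90), *Tnfaip3* (0.86), *Cd14* (0.83), *Nfkbie* (0.81), *Fosl1* (0.76), *Ifit2* (0.75), *Cxcl2* (0.73), *Pde4b* (0.72) and *Traf1* (0.72). *Sod2*, *Tnfaip3*, *Cd14*, *Nfkbie*, *Fosl1* and *Cxcl2* were higher in 6 of 6 libraries and the other 4 in 5 of 6. *Sod2* is mitochondrial superoxide dismutase, *Tnfaip3* (A20) and *Nfkbie* restrain NF-kB, *Cd14* is the lipopolysaccharide co-receptor and *Cxcl2* a neutrophil chemokine. Among the other 7 genes of the group the value was 0.51 for *Tgm2*, 0.50 for *Ptgs2*, 0.39 for *Hcar2*, 0.28 for *Arg2*, 0.27 for *Clec4d* and *Thbs1* and 0.15 for *Mirt2*, above 4973, 4970, 4916, 4827, 4815, 4800 and 4514 of the 5013 genes. The hypoxia and glycolysis genes were mixed. *Hk2* (−0.18) and *Ldha* (−0.06), glycolytic enzymes, were not higher with *Acod1*, whereas *Slc2a1* (0.22) and *Hif1a* (0.27) were. The ranks of the 7 genes follow in part from their choice as leaders of the same cluster as *Acod1*.

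Pathway lists gave the setting of these genes. Among all genes, 14.1% were at least 1.5-fold higher and 25% lower in CBMA_18m than in CBMA_02m, and 13.2% were higher and 21.9% lower in CBMD_18m than in CBMD_02m, and list counts near these shares are not set apart from other genes. Of the 20 NF-kB and inflammatory genes, 15 were at least 1.5-fold higher and 1 lower in CBMA_18m than in CBMA_02m (median log2 ratio 0.80), led by the chemokines *Ccl3* (5.50) and *Ccl4* (4.55) and by *Tnfaip3* (3.23), with *Ier3* lowest at 0.625. In CBMD_18m against CBMD_02m 3 were higher and 6 lower (median −0.04), near the shares over all genes, with *Il1rn* at 1.64, *Il1b* at 1.56, *Tnfaip3* at 1.52 and *Cxcl3* at 0.357. In CBMD_18m against CBMD_12m none was higher and 10 were lower (11.3% and 24.9% of all genes), whereas 15 were higher and 1 lower in CBMA_18m against CBMA_12m (6.69% and 39.7% of all genes). Between sites 16 of them were at least 1.5-fold lower in CBMA_02m than in CBMD_02m, beside 6.51% of all genes. In CBMA_12m against CBMD_12m 18 were lower, beside 11.0%. At 18m none of 20 passed in either direction, where 4.92% of all genes were higher and 3.00% lower. The summed level of the 20 genes was 8331, 6791 and 15353 CPM in CBMA versus 18263, 22690 and 16564 CPM in CBMD (02m, 12m, 18m).

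All 8 genes were above CBMD_02m in CBMD_18m, at ratios of 1.32 to 32.1. The summed inflammatory list was not, although 3 of its 20 genes were at least 1.5-fold higher and 6 lower. The genes were chosen on the 18m libraries, and how they relate to the list was not tested. Immediate-early and heat shock genes summed to 8405, 10057 and 14932 CPM in CBMA versus 11317, 13829 and 17174 CPM in CBMD, the highest at 18m in both sites. Their part in the 8 genes' levels was not tested. In that list 5 of 14 genes were higher and 1 lower in CBMA_18m than in CBMA_02m, with *Atf3* at 3.45, *Fos* at 2.48, *Jun* at 1.94 and *Hsp90aa1* at 0.582, and 5 were higher and none lower in CBMD, with *Jun* at 1.97, *Jund* at 1.85 and *Fos* at 1.72. The interferon-stimulated genes stood the other way, with 15 of 16 lower in CBMA_18m than in CBMA_02m (median −2.70) and 14 of 15 in CBMD (median −2.31).

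For *Arg2*, the enzymes around arginine and polyamines gave no common direction and counts near the shares over all genes, with none of 8 higher and 3 lower in CBMA_18m than in CBMA_02m and 2 higher and 2 lower in CBMD. *Ass1*, which rebuilds arginine from citrulline, was lower in both sites at 0.156 in CBMA versus 0.275 in CBMD, whereas *Odc1*, which uses ornithine for polyamines, was at 1.39 (CBMA) and 1.56 (CBMD). Around *Ptgs2*, the 8 measured eicosanoid genes had 1 higher and 2 lower in CBMA versus 1 higher and none lower in CBMD, with *Hpgd*, which breaks prostaglandins down, at 2.69 and *Ptges2* at 0.579 in CBMA and the phospholipase *Pla2g4a* at 1.51 in CBMD. Around *Clec4d*, 3 of 9 C-type lectin signalling genes were higher and 1 lower in CBMA versus 3 higher and 3 lower in CBMD. Among them *Malt1*, the paracaspase downstream of these receptors, stood at 2.34 in CBMA and 1.96 in CBMD and the receptor *Clec7a* (Dectin-1) at 1.73 in CBMA and 1.60 in CBMD, while the adaptor *Card9* stood at 0.649 in CBMA and 0.432 in CBMD. Around *Acod1*, the NRF2 targets had 3 of 9 higher and none lower in CBMA (*Srxn1* 1.83, *Txnrd1* 1.68, *Slc7a11* 1.66) and 1 higher and 1 lower in CBMD (*Gclm* 1.74, *Txn1* 0.596).

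The 13 hypoxia and glycolysis genes had 5 higher and 1 lower in CBMA_18m than in CBMA_02m (*Hilpda* 7.63, *Slc2a1* 2.25, *Egln3* 2.05 and *Hk2* 0.591) and 6 higher and none lower in CBMD (*Pfkl* 2.08, *Slc2a1* 2.03 and *Slc2a3* 2.02). Of 10 maturation genes, 2 were higher and 2 lower in CBMA versus 3 higher and 1 lower in CBMD, with *Mxd1* at 2.08 (CBMA) and 1.91 (CBMD), *Mmp8*, neutrophil collagenase, at 1.37 (CBMA) and 2.25 (CBMD), *Trem1* at 2.51 (CBMA) and *Cd177* at 2.15 (CBMD). The lowest of them was *Chil3* at both sites, at 0.304 in CBMA versus 0.461 in CBMD. Of 8 ageing and trafficking genes, 1 was higher and none lower in CBMA versus 2 higher and 1 lower in CBMD, with the chemokine receptor *Cxcr2* at 1.46 (CBMA) and 1.56 (CBMD). The adhesion molecule *Icam1* was the one past the limit upward in CBMA (1.57) and the one past it downward in CBMD (0.610).

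**Figure D5:**
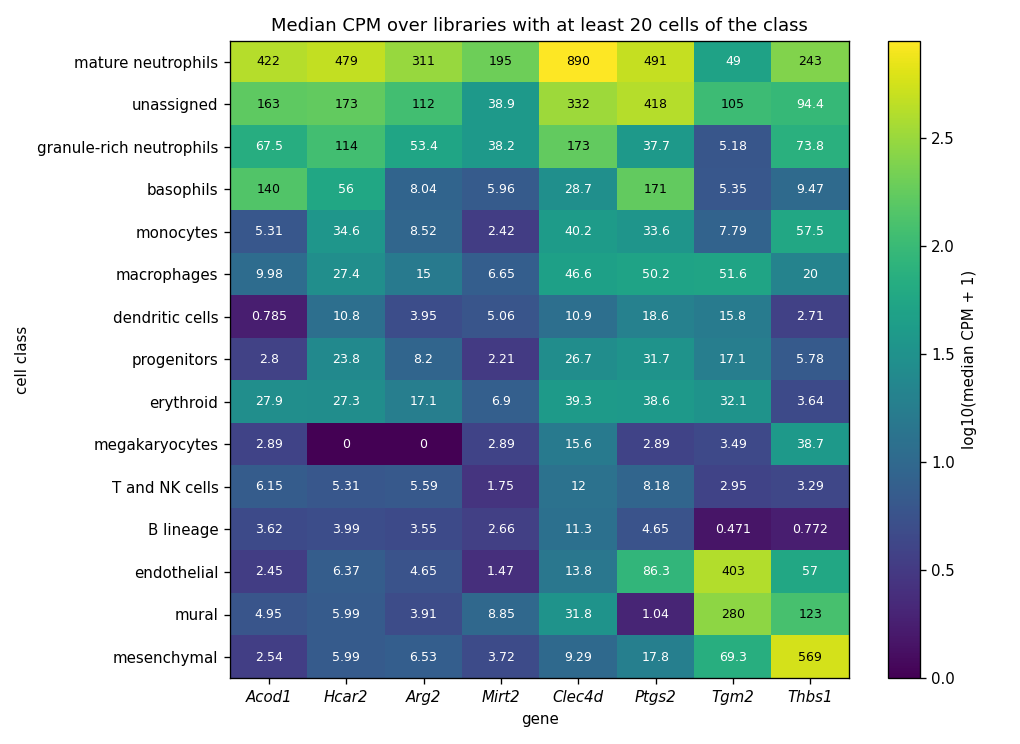
Median CPM over the libraries with at least 20 cells of a class, for the 8 genes (columns) in 15 cell classes (rows). Colour is log10 of the median CPM plus 1 and the printed numbers are the medians. Mature neutrophils lead 6 of the 8 columns, while endothelial cells lead for Tgm2 and mesenchymal cells for Thbs1.

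Across 15 cell classes, mature neutrophils had the highest median CPM over libraries for *Acod1* (422), *Hcar2* (479), *Arg2* (311), *Mirt2* (195), *Clec4d* (890) and *Ptgs2* (491). The next class in each was cells that met no class by their markers, most of them neutrophil-like with little *S100a8* and *S100a9*. For *Arg2* (mature neutrophils 153 to 433 CPM), *Mirt2* (187 to 295 CPM) and *Clec4d* (588 to 1305 CPM) the libraries did not overlap with that class, at 60.7 to 149, 34.2 to 55.1 and 208 to 427 CPM. For *Acod1*, *Hcar2* and *Ptgs2* they overlapped. Basophils came next for *Acod1* (5.35 to 232 CPM) and *Ptgs2* (5.35 to 410 CPM) over 5 libraries.

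*Tgm2* was led by endothelial cells (median 403 CPM, range 383 to 555), with mature neutrophils in the sixth place at 49.0 CPM. *Thbs1* was led by mesenchymal cells (569 CPM, 148 to 797), followed by mature neutrophils (243 CPM, 5.19 to 1194) with overlapping ranges. Granule-rich neutrophils, the less mature stage with more *Ltf*, *Ngp* and *Camp*, held the genes at lower levels in every library except *Thbs1* at 02m, with *Acod1* at 9.48, 8.19 and 76.2 CPM in CBMA versus 58.8, 230 and 111 CPM in CBMD and *Thbs1* at 10.0, 39.6 and 142 CPM in CBMA versus 15.1, 596 and 108 CPM in CBMD.

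Monocytes were counted in 2369, 400 and 1128 cells of CBMA and 1999, 511 and 1138 cells of CBMD, at median depths of 6609 to 9504 UMIs. *Acod1* had 12, 4 and 66 UMIs there in CBMA (0.53, 1.38 and 6.00 CPM) and 93, 142 and 112 UMIs in CBMD (4.62, 35.4 and 10.9 CPM), which is 0.497% to 4.05% of the mature neutrophil level of the same library. The neutrophil transcripts *Retnlg* and *Cxcr2*, as a measure of free RNA, stood in monocytes at 0.279% to 0.686% and 0.839% to 1.58% of their neutrophil level, and *Mmp8* at 10.2% to 16.6%. *Ly6g* stood at 0.486% to 1.30% and *Il1r2* at 2.32% to 5.70%. The measure thus differed between transcripts, and the ranges of *Acod1* and *Il1r2* overlapped. In B-lineage cells *Acod1* stood at 0% to 6.00% of the neutrophil level (median 0.919%), against a median of 1.38% in monocytes, so the ranges overlapped. *Mirt2* stood at 0.822% to 2.99% in monocytes and 0% to 3.76% in B-lineage cells. In CBMD_12m *Acod1* stood at 35.4 CPM (29.8 to 41.7) in monocytes, against 15.4 CPM (10.9 to 21.3) in B-lineage cells and 25.4 CPM (18.95 to 33.3) in T and NK cells. In CBMD_18m it stood at 10.9 CPM (8.94 to 13.1) in monocytes, against 3.86 CPM (1.85 to 7.1) and 17.3 CPM (11.4 to 25.2) in those cells, so low levels were present in lymphocytes as well.

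*Thbs1* stood at 12.4, 29.3 and 85.7 CPM in CBMA monocytes (281, 85 and 943 UMIs) and 12.3, 217 and 91.1 CPM in CBMD monocytes (247, 872 and 940 UMIs). That was 17.7% to 238% of the mature neutrophil level, against 0% to 2.37% in B-lineage cells. In T and NK cells it was 0% to 37.0%, so the ranges of monocytes and of T and NK cells overlapped. In both 02m libraries the monocyte level was above that of neutrophils. Monocytes with a *Thbs1* UMI made up 6.96%, 10.8% and 26.0% in CBMA versus 8.40%, 42.5% and 28.3% in CBMD, or 1.27%, 3.89% and 6.58% (CBMA) and 1.16%, 17.2% and 7.40% (CBMD) of thinned cells. *Tgm2* stood at 1.14, 12.1 and 8.995 CPM in CBMA versus 2.98, 51.8 and 6.59 CPM in CBMD, and *Hcar2* at 6.82, 16.6 and 59.0 CPM (CBMA) and 22.0, 62.8 and 47.3 CPM (CBMD). *Ptgs2* stood at 3.34, 19.0 and 51.2 CPM (CBMA) and 5.61, 59.6 and 48.3 CPM (CBMD), *Clec4d* at 13.4, 27.6 and 54.7 CPM (CBMA) and 17.7, 66.8 and 52.9 CPM (CBMD), and *Arg2* at 3.03, 5.86 and 11.2 CPM (CBMA) and 5.21, 33.1 and 14.1 CPM (CBMD). *Mirt2* stood at 1.67, 2.41 and 3.82 CPM (CBMA) and 2.23, 5.73 and 2.42 CPM (CBMD). CBMD_12m was the highest library for each of these 7 genes in monocytes.

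In monocytes all 8 genes were at least 1.5-fold higher in CBMA_18m than in CBMA_02m, beside 22.6% of 12039 genes, and 7 in CBMD_18m than in CBMD_02m, beside 20.1% of 12046, with *Mirt2* at 1.08. The 18m against 02m ratios in CBMA ran from 2.28 (*Mirt2*) to 15.3 (*Ptgs2*). All 6 measured genes were higher in CBMA_12m than in CBMA_02m (29.4% of 11368 genes), and all 8 in CBMD_12m than in CBMD_02m (26.3% of 11595). In CBMA_18m against CBMA_12m 6 of 7 were higher (6.09% of 10543 genes), and in CBMD_18m against CBMD_12m 4 of 7 were lower (12.9% of 10743). *Acod1* and *Mirt2* are among these counts. Neutrophil levels of the genes changed in the same libraries, and how much of the monocyte UMIs is free neutrophil RNA was not tested.

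Macrophages numbered 301 in all, with at least 20 in CBMA_18m (156), CBMD_12m (32) and CBMD_18m (81), so that few UMIs lie behind their values. *Acod1* had 8, 6 and 6 UMIs there in CBMA_18m, CBMD_12m and CBMD_18m (7.999, 27.4 and 9.98 CPM). *Tgm2* had 34, 18 and 31 UMIs (34.0, 82.1 and 51.6 CPM), 35.7% to 92.4% of the neutrophil level, the closest of the 8 genes. *Hcar2* had 53, 6 and 8 UMIs, *Ptgs2* 65, 11 and 18, *Clec4d* 41, 11 and 28, *Arg2* 9, 11 and 9, *Mirt2* 6, 2 and 4 and *Thbs1* 20, 16 and 1. Macrophage markers in the mature neutrophil gate summed to 3.62 to 34.0 CPM, with *Cd5l* at 0 in 4 libraries, and monocyte markers to 402 to 629 CPM.

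At the edges of the gate the 8 genes were present on both sides. Their summed level in the 556 cells with *S100a8* and *S100a9* at 2% to 2.5% of UMIs was 625, 1902 and 3449 CPM in CBMA versus 1507, 3754 and 3773 CPM in CBMD, and in the 644 cells at 1.5% to 2%, just outside, 661, 1124 and 4023 CPM in CBMA versus 1243, 3141 and 4259 CPM in CBMD. With *Ltf*, *Ngp* and *Camp* at 0.5% to 1% it was 533, 853 and 2584 CPM in CBMA versus 1177, 3148 and 2637 CPM in CBMD, and at 1% to 2%, just outside, 290, 789 and 2150 CPM in CBMA versus 1128, 2886 and 1875 CPM in CBMD. The sum hides differences between genes. Cells with neutrophil markers but *S100a8* and *S100a9* under 2%, outside the gate, held *Ptgs2* at 383, 976 and 1446 CPM in CBMA. In CBMD they held it at 496, 610 and 1470 CPM, so *Ptgs2* was above its gate level in every library. *Tgm2* was also higher there in every library, at 62.8 to 279 CPM, and *Mirt2* lower, at 58.1 to 101 CPM. Within the 12m libraries, cells with *Xist* and no Y-linked UMI held *Acod1* at 94.4 CPM in CBMA versus 806 CPM in CBMD, against 109 CPM and 693 CPM in cells with a Y-linked UMI and no *Xist*. The *Xist* cells made up 19.5% (CBMA_12m) and 25.6% (CBMD_12m) of the gate and the Y cells 16.6% and 16.8%. Most gate cells, 61.3% and 55.0%, held neither transcript, and in them *Acod1* stood at 152 CPM (CBMA_12m) and 1015 CPM (CBMD_12m). *Thbs1* stood at 122 CPM in *Xist* cells, against 143 CPM in Y cells, of CBMA_12m and at 1038 against 1476 CPM in CBMD_12m. *Ptgs2* stood at 397 against 417 CPM in CBMA_12m and 381 against 597 CPM in CBMD_12m. Cells with neither transcript held *Thbs1* at 191 CPM and *Ptgs2* at 619 CPM in CBMA_12m. In CBMD_12m these were 1201 CPM and 580 CPM.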

How the data were processed

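The deposited matrices are raw UMI counts, whole numbers for each feature in each barcode, which the authors made with Cell Ranger 5.0.1 against the Ensembl GRCm38 genome before any limit on cells. The study's limits were applied: at least 500 and at most 5000 genes, more than 500 UMIs and a mitochondrial share below 25%. Mature neutrophils were gated as described, and other classes took the marker list of which the largest fraction had a UMI, with at least 3 markers. That scoring was set after the data were seen. No doublet caller was run, since an alternative leaves out cells with at least 3 times the median UMIs or 2 markers of another class. The 8 genes and all lists were chosen with earlier results of these data known.

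UMIs were summed per class and library and scaled to CPM. Genes with at least 50 UMIs over the 2 libraries were compared, and 1.5-fold was called higher or lower. Ratios have exact 95% Poisson intervals and shares exact Clopper-Pearson intervals. With 1 pooled library per age and site, no test across mice was made. Total depth per library was 16031737 to 66264495 UMIs. The counting functions were tested on simulated data. All 8 genes and the 10 genes most like *Acod1* are named, and genes of each list from its extremes (the 3 largest and the smallest 18m against 02m ratio) and paralogs. A few list genes outside that rule (*Il1b* in CBMA, *Odc1*, *Hk2*, *Ldha*, *Hif1a*, *Il1r2*, *Ly6g*, *Cxcr2*, *Cxcr4*, *Spatc1*, *Vti1b*, *Rprd1b*) were added after their values were seen. Alternatives covered the gate, cell limits, doublets, scaling, fold, UMI minimum, thinning and the 12m cells by sex transcripts. The ones without cells carrying progenitor or monocyte markers and with at least 3 neutrophil markers were chosen after seeing the data. Python 3.11.15 was used with numpy 2.4.6, scipy 1.17.1, pandas 2.3.3 and matplotlib 3.10.9.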

Additional observations from a re-analysis of the deposited data

Results flagged for a closer look

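For 5 genes the age ratio in mature neutrophils had opposite signs in CBMA and CBMD, so that the single library of each site moved the other way. The difference between sites was not tested. At 18m against 12m the log2 ratio was 2.2 in CBMA and −0.42 in CBMD for *Acod1*, 0.50 and −2.04 for *Tgm2* and 1.06 and −1.90 for *Thbs1*. *Ptgs2* was at 0.13 in CBMA and −0.13 in CBMD for the same ages, both within 1.5-fold, and the CBMD sign changed under size factors and with *Xist*-only 12m cells, the CBMA sign without likely doublets (−0.01), without cells with progenitor or monocyte markers and with cells weighted equally. *Arg2* was at −0.37 in CBMA and 0.80 in CBMD for 12m against 02m. These comparisons all involve the 12m libraries, which held *Xist*.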

How the results depend on the processing

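No paired analysis was possible because each age and site is 1 pooled library, and the replicate number the labels share (1) pairs nothing. Leaving out a replicate was likewise not possible. Of 308 counts of genes past 1.5-fold recomputed under the alternatives, 298 were within 1.5 times the value in the report, and of 1016 log2 ratios 770 moved by less than the counting interval. No 18m against 02m ratio of the 8 genes changed sign in either site under the alternatives run. With CBMA_12m against CBMA_02m, 1 gene in place of 0 was lower under size factors, and also with 12m cells holding Y-linked UMIs alone or *Xist* alone, each set against all 02m cells. In CBMA_18m against CBMA_12m 8 in place of 5 were higher under size factors. At 2-fold, 4 in place of 7 were higher in CBMD_18m than in CBMD_02m, 3 in place of 5 were lower in CBMA_02m than in CBMD_02m and 0 in place of 2 were higher in CBMD_18m than in CBMD_12m. The last count was 0 without likely doublets, which keeps 64.7% of the CBMD_12m gate, and 1 with totals that leave out *S100a8* and *S100a9* or without cells with progenitor or monocyte markers. The shares of all genes under these settings are not given here, so the counts are not set against other genes. The cause of these changes was not tested. Shares of positive cells move with depth by construction. Cells with at least 3 of the genes were 2.59%, 5.32% and 22.4% in CBMA versus 6.91%, 31.9% and 25.03% in CBMD (02m, 12m, 18m) at 500 UMIs, 30.2%, 42.7% and 77.4% (CBMA) and 52.5%, 82.0% and 79.9% (CBMD) at 2000 UMIs, and 48.2%, 48.6% and 85.5% (CBMA) and 71.4%, 84.8% and 88.2% (CBMD) without thinning. At 1000 UMIs the share was 12.97% for CBMA_12m cells with *Xist* alone, and in CBMD_12m it was 53.9% with *Xist* alone, 63.1% without likely doublets and 62.8% without cells with progenitor or monocyte markers. *Hcar2* was found in 11.2%, 10.8% and 40.9% of *Acod1*-positive cells in CBMA versus 22.5%, 27.0% and 39.1% in CBMD at 500 UMIs, 32.2%, 34.0% and 76.0% (CBMA) and 53.7%, 64.8% and 72.9% (CBMD) at 2000 UMIs, and 40.3%, 41.1% and 84.1% (CBMA) and 69.1%, 68.9% and 80.7% (CBMD) without thinning. CBMA_12m has the fewest cells and UMIs, and for *Tgm2* (115 UMIs) it gives wide intervals.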
